A study of Rattus norvegicus with 74 samples.

Results

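Liver RNA of rats given phenobarbital at 45 mg/kg was set against that of rats given 5 mg/kg, to see which genes had reached their level at the lower dose, which went on changing and which turned back. The comparison held 10 of the 74 arrays of the series, chosen by their dose labels, with 5 arrays at 45 mg/kg and 5 at 5 mg/kg. A further group of 5 arrays from rats given phenobarbital at 0 mg/kg placed each gene's starting level. All 15 came from livers of Wistar Han rats, Crl:WI (Han), dosed by oral gavage, 1 array per liver sample. The study's other arrays belong to BDE-47, DE-71 and PCB126 groups, which entered only through the shared estimate of the spread. The labels state exposure before and after birth up to postnatal day 22 on every array, but their dosing text names DE-71 and BDE-47 and not phenobarbital, so the schedule and age of the phenobarbital rats, and their sex and the vehicle, are not settled by the labels.

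Phenobarbital is the classic inducer of drug-metabolising enzymes in liver. It activates the constitutive androstane receptor, CAR (gene Nr1i3), mainly by causing its release into the nucleus, and at higher exposure the pregnane X receptor, PXR (gene Nr1i2). In hepatocytes these receptors switch on cytochrome P450 genes of the 2B, 2C and 3A families, carboxylesterases, conjugating enzymes and export pumps, and they are known to lower genes of bile acid and lipid metabolism.

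Between 5 and 45 mg/kg, the drug-metabolism genes Cyp2a3, Cyp2c7 and Ces2c rose by 4.4-fold or more, the membrane protein gene Cltrn rose from near the bottom of the intensity scale, and the bile acid synthesis genes Cyp7a1 and Cyp8b1 fell 7-fold and 4.8-fold. Values are log2 intensities after robust multi-array averaging (RMA), so a difference of 1 is a factor of 2, and each gene is read from 1 probe set. Of 14217 genes tested with limma, 97 passed a Benjamini-Hochberg adjusted p of 0.05 (0.682% of the genes), 58 of them higher at 45 mg/kg (0.408%) and 39 lower (0.274%). In 81 of the 97 the 5 arrays of one dose all lay beyond the 5 arrays of the other, where 1.9% of all genes were separated in this way upward and 1.52% downward. The change was at least 2-fold in 19 risen and 8 fallen genes. The median difference over all genes was −0.007. By comparison, 15 genes passed between 5 and 0 mg/kg (0.106%) and 384 between 45 and 0 mg/kg (2.7%), and 84 of the 97 were among the latter.

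The number of genes called depended on which arrays were fitted. It fell from 97 to 54 without 45 mg/kg replicate 5, to 59 without replicate 1 and to 62 without replicate 2 of that dose, and to 64 without 5 mg/kg replicate 4, and was 106 without 45 mg/kg replicate 3. It rose to 177 when only the 15 phenobarbital arrays set the spread and to 209 with only the 10 arrays compared. Of the 97 calls, 42 were kept whichever of the 10 arrays was left out and 55 were lost at least once. The 15 calls between 5 and 0 mg/kg were less stable: 4 were kept in every such fit, and the count was 6 without 0 mg/kg replicate 1, 5 without 5 mg/kg replicate 2, 6 without replicate 4 and 24 without replicate 3.

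Each of the genes was placed in a dose class from its differences between 5 and 0 mg/kg and between 45 and 5 mg/kg, which share the 5 mg/kg arrays, so that an error in those arrays moves the estimates in opposite directions. Only 3 genes passed the test at both steps with the same sign (continued). Another 18 were called in the upper step and had an unadjusted p below 0.05 with the same sign in the lower one (graded), 16 rising and 2 falling. The largest class, with 71 genes, was called in the upper step while the lower difference had an unadjusted p of 0.05 or more, 38 rising and 33 falling. For 13 of these 71 the 95% interval of the lower difference lay within 50% of the size of the upper step; for the other 58 the interval reached further, so their class does not show that they were unmoved at 5 mg/kg. A change of sign was found in 5 genes, and 3 genes were called against 0 mg/kg with an upper step whose 95% interval lay within 50% of the lower difference (plateau). The remaining 300 genes called against 0 mg/kg at either dose (unresolved) had an upper step that was not called. Its 95% interval reached beyond 50% of the lower difference, which a wide interval, a larger step or a small lower difference can each bring about.

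**Figure D1:**
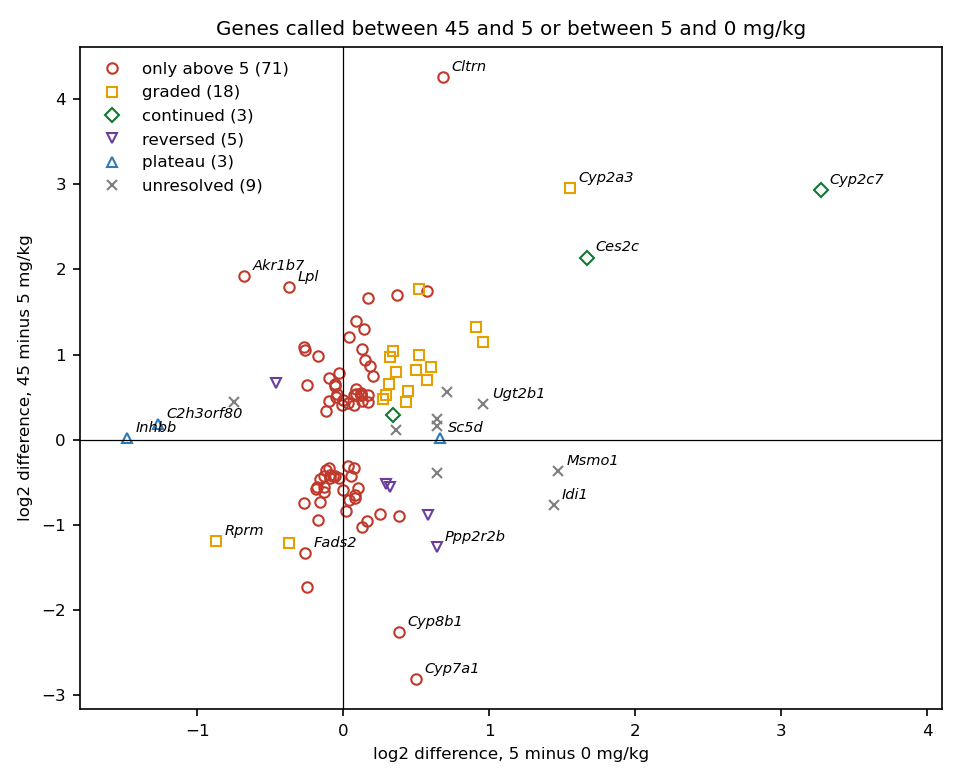
The log2 difference between 5 and 0 mg/kg (horizontal axis) against the log2 difference between 45 and 5 mg/kg (vertical axis) for the genes called in either comparison, with markers for the dose class. Cyp2c7 and Ces2c lie high on both axes, Cltrn rises along the vertical axis, and Cyp7a1 and Cyp8b1 lie lowest.

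Ces2c and Cyp2c7 rose at both steps. Ces2c, a carboxylesterase that hydrolyses ester drugs, read 10.26, 10.21, 9.90, 10.29 and 10.47 at 5 mg/kg (mean 10.22 ± 0.21, SD, n = 5) and 12.43, 12.50, 12.36, 12.32 and 12.21 at 45 mg/kg (12.36 ± 0.11). The 0 mg/kg arrays ran from 7.84 to 9.35, so the 3 groups did not overlap. The upper step was 2.14 (SE 0.24, adjusted p = 4.5e-09 by limma) and the lower 1.67 (SE 0.24, adjusted p = 1e-05), and both calls were kept whichever array was left out.

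Cyp2c7, a P450 that hydroxylates steroids and retinoids, read 10.63, 10.59, 9.42, 10.18 and 11.89 at 5 mg/kg, a wide spread (10.54 ± 0.90), and a tight 13.46, 13.58, 13.58, 13.49 and 13.23 at 45 mg/kg (13.47 ± 0.14). Against 7.27 ± 0.45 at 0 mg/kg, the lower step was 3.27 (SE 0.65, adjusted p = 0.0097) and the upper 2.93 (SE 0.65, adjusted p = 0.0088). The groups did not overlap at either step. Once the highest array at 5 mg/kg, replicate 5, was left out, the lower step was 2.94 and its adjusted p was 0.051.

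Cyp2a3, a P450 of the 2A family, read 10.35, 7.67, 8.91, 8.78 and 9.09 at 5 mg/kg and 12.02, 11.88, 11.37, 12.12 and 12.20 at 45 mg/kg. The upper step of 2.96 (SE 0.53, adjusted p = 0.00049) separated the groups completely. Between 5 and 0 mg/kg the groups overlapped, with a difference of 1.55 (SE 0.53, adjusted p = 0.46).

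Smaller steps were called in 2 P450s of the 3A family and in Aldh1a1. Cyp3a23-3a1, a main steroid and drug oxidase of the 3A family, rose from 13.47 ± 0.11 to 14.04 ± 0.08 (difference 0.57, SE 0.11, adjusted p = 0.0013), with the 5 mg/kg arrays at 13.29 to 13.58 and the 45 mg/kg arrays at 13.92 to 14.13. Cyp3a9 rose from 3.72 ± 0.10 to 4.37 ± 0.23 (0.65, adjusted p = 0.00038), near the low end of the intensity scale. Aldh1a1, which oxidises retinaldehyde, rose from 12.48 ± 0.17 to 13.18 ± 0.12 (0.70, adjusted p = 0.0062). For all 3 the groups did not overlap, and the calls were kept without any single array.

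Most CAR and PXR targets read higher at the higher dose of each step, with 27 of 33 estimates above 0 in the upper step and 30 in the lower. Of the 33 measured members, 10 rose in the upper step and none fell, against 0.408% and 0.274% of all genes. The 6 estimates below 0 included Thrsp (−1.53) and Cyp3a18 (−0.61), with unadjusted p of 0.00082 and 0.036, whose groups did not overlap. At the lower step 4 rose (0.0844% of all genes), and 21 had risen at 45 mg/kg against 0 mg/kg, where 1.38% of all genes rose. The median member differed by 0.42 in the upper step and by 0.43 in the lower, against −0.007 and −0.016 over all genes. Averaged over the members, the 5 arrays ran from 8.51 to 8.82 at 0 mg/kg, from 9.18 to 9.25 at 5 mg/kg and from 9.79 to 9.93 at 45 mg/kg, with no overlap. Leaving out 1 array gave 8 to 11 risen members, and 1 fallen without 45 mg/kg replicate 4. Cyp2b1 and Cyp2b2, the best known CAR targets in rat, have no probe set here that is assigned to them alone and were not analysed here by name.

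**Figure D2:**
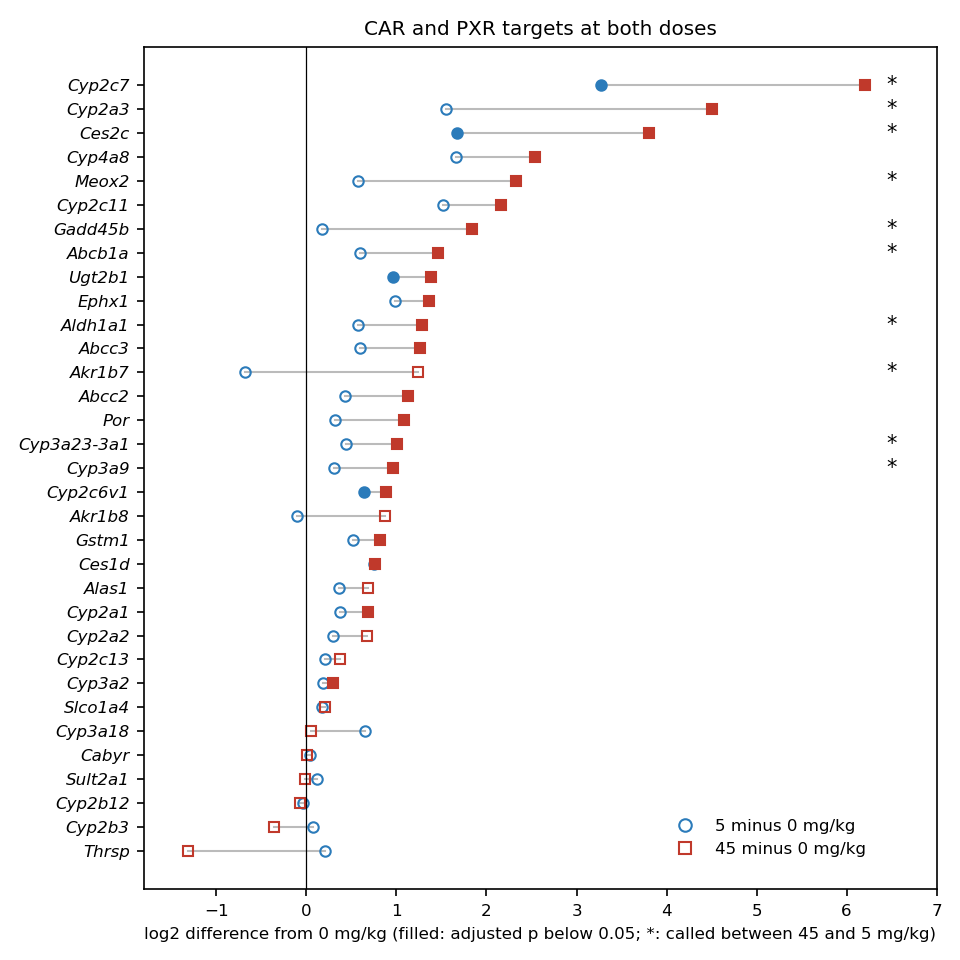
Log2 differences from 0 mg/kg of the 33 CAR and PXR targets at 5 mg/kg (circles) and 45 mg/kg (squares), filled where the adjusted p was below 0.05, with an asterisk for the 10 genes called between 45 and 5 mg/kg. The gap between circle and square is the upper step, which is wide for Cyp2c7, Cyp2a3 and Ces2c and narrow for Cyp2c6v1 and Ces1d.

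Abcb1a, a P-glycoprotein drug pump, passed the upper step. It read 8.22, 8.37, 7.93, 8.56 and 8.01 at 5 mg/kg and 9.30, 8.92, 8.80, 9.06 and 9.33 at 45 mg/kg. Its step of 0.86 (SE 0.21, adjusted p = 0.026 by limma) separated the groups. The adjusted p was 0.063, 0.1 and 0.09 without 5 mg/kg replicates 1, 3 and 5, and 0.11 and 0.12 without 45 mg/kg replicates 1 and 5. Another probe set of Abcb1a gave a step of 0.98 (adjusted p = 0.0023 by limma over all single-gene probe sets). That probe set was not tested without single arrays. Steps that missed the threshold were 0.70 for the canalicular pump Abcc2 (adjusted p = 0.06), 0.67 for the basolateral pump Abcc3 (adjusted p = 0.27) and 0.75 for Por (adjusted p = 0.07), the reductase that passes electrons to P450s. All 3 were called against 0 mg/kg at 45 mg/kg, by 1.13, 1.26 and 1.08. Of 16 measured genes of heme synthesis and P450 electron supply, 0 passed the upper step by limma, with a median of 0.03. An unadjusted p below 0.05 was found in 3 higher and 2 lower members (all genes, 4.11% and 3.22%).

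The receptors themselves did not pass the test. Nr1i3 differed by −0.37 (SE 0.26, adjusted p = 0.88) and Nr1i2 by −0.15 (SE 0.19, adjusted p = 0.99) between 45 and 5 mg/kg, with overlapping groups. Cyp1a1, a P450 driven by the aryl hydrocarbon receptor (AhR), differed by 0.43 (SE 0.57, adjusted p = 0.99), and Cyp1a2 by −0.58 (SE 0.16, adjusted p = 0.067). No member of the 13 measured AhR targets and none of the 24 measured NRF2 targets passed the upper step by limma, with unadjusted p below 0.05 in 1 higher and 2 lower AhR targets and in 4 higher NRF2 targets. Over all genes, 4.11% were higher and 3.22% lower at an unadjusted p below 0.05 in this step, the shares against which such counts are read.

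Among enzymes that attach glucuronic acid or sulfate, 3 of 20 measured members rose in the upper step and none fell. Over all genes, 0.408% rose and 0.274% fell. The list names 32 genes, and those not measured include Ugt1a1, Ugt1a2, Ugt1a3, Ugt1a5, Ugt1a6, Ugt1a7c and Ugt1a8. Ugt2b35, a glucuronosyltransferase, read 13.39, 13.49, 13.19, 13.26 and 13.38 at 5 mg/kg and 13.69, 13.61, 13.69, 13.49 and 13.66 at 45 mg/kg. This last gene of the continued class moved by 0.29 (SE 0.07, adjusted p = 0.02) in the upper step and by 0.34 (SE 0.07, adjusted p = 0.011) in the lower. The upper call was lost without 5 mg/kg replicates 3 or 4 or 45 mg/kg replicates 1, 3 or 5 (adjusted p of 0.1 at most), and the lower when replicate 1 at 0 mg/kg (0.096) or replicate 2 at 5 mg/kg (0.12) was left out.

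Ugt2b10 rose from 11.75 ± 0.09 to 12.18 ± 0.14 (0.44, SE 0.11, adjusted p = 0.021), a call lost without 5 mg/kg replicates 2, 4 or 5 or 45 mg/kg replicates 1, 2 or 5 (adjusted p up to 0.12). Sult1b1, a sulfotransferase of phenols and thyroid hormones, read 10.55 to 11.36 at 5 mg/kg and 11.95 to 12.65 at 45 mg/kg, a step of 1.32 (SE 0.34, adjusted p = 0.038). Its call survived the loss of only replicate 5 at 5 mg/kg or replicate 3 at 45 mg/kg, and the adjusted p reached 0.14 in the other 8 fits. The count of 3 risen members was 0 without 5 mg/kg replicate 4 or 45 mg/kg replicates 1 or 5, and 1 without 5 mg/kg replicates 2 or 3 or 45 mg/kg replicate 2, and 1 member fell without 45 mg/kg replicate 4.

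Of 22 glutathione S-transferases, which couple electrophiles to glutathione, only Gsta4 passed, as a rise (0.408% of all genes). Its values were 11.37, 11.68, 11.18, 11.77 and 11.34 at 5 mg/kg against 12.00, 11.99, 11.62, 12.09 and 12.06 at 45 mg/kg, with 45 mg/kg replicate 3 inside the lower group. The step of 0.48 (adjusted p = 0.02) was lost without 5 mg/kg replicates 1, 3 or 5 or 45 mg/kg replicates 1, 2, 4 or 5 (adjusted p up to 0.12), while 2 members of the list were called without 45 mg/kg replicate 3. P450, glucuronosyltransferase and glutathione S-transferase genes have close relatives whose RNA can bind the same probes, so the share of each family member in its value is uncertain and was not tested.

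The largest rise of all was in a gene near the bottom of the scale at 5 mg/kg. Cltrn, which encodes collectrin, a membrane protein that assists amino acid transporters, read 3.89, 3.83, 3.13, 4.53 and 4.17 at 5 mg/kg and 8.05, 9.27, 7.72, 8.43 and 7.39 at 45 mg/kg. The step read 4.26 (SE 0.38, adjusted p = 1.4e-12). Its 0 mg/kg arrays read 3.10 to 3.37 and overlapped those at 5 mg/kg. Both lower groups lay below the median of every phenobarbital array, near the floor of the scale, so the step may be understated, and a difference between 5 and 0 mg/kg could not be read there.

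Fbxo27, a glycoprotein-binding subunit of ubiquitin ligases, rose from 4.99 ± 0.23 to 6.69 ± 0.19 (1.70, SE 0.19, adjusted p = 4.5e-09). Its 5 mg/kg arrays read 5.32, 5.05, 4.72, 5.02 and 4.85, and its 45 mg/kg arrays 7.02, 6.58, 6.57, 6.60 and 6.68. Zdhhc2, a palmitoyltransferase of the graded class, rose from 6.20 ± 0.36 to 7.97 ± 0.41 (1.77, SE 0.20, adjusted p = 7e-09) after a lower difference of 0.52 (unadjusted p = 0.013). For both genes every 45 mg/kg array exceeded every 5 mg/kg array.

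Lpl, the lipase that releases fatty acids from circulating triglyceride, read 9.43, 8.60, 9.41, 8.93 and 9.79 at 5 mg/kg and 11.49, 11.38, 10.71, 10.41 and 11.13 at 45 mg/kg. The step was 1.79 (SE 0.31, adjusted p = 0.00022), where the lower difference was −0.37 (SE 0.31). Grk5, a kinase that desensitises G protein-coupled receptors, rose from 4.82 ± 0.12 to 6.21 ± 0.30 (1.40, adjusted p = 2.8e-05), and the homeobox factor Meox2 from 7.07 ± 0.21 to 8.83 ± 0.67 (1.75, adjusted p = 0.00055). The groups of all 3 genes were separate, and leaving out 1 array ended none of these calls.

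Gadd45b, a stress gene that CAR is known to induce, was uneven at 45 mg/kg. Its arrays read 5.64, 4.86, 4.94, 5.25 and 4.93 at 5 mg/kg and 8.20, 7.19, 6.48, 5.25 and 6.86 at 45 mg/kg, so that replicate 4 stayed in the range of the lower dose. The step was 1.67 (SE 0.31, adjusted p = 0.00061), and 1.32 without replicate 1, the highest array (adjusted p = 0.017). With the 10 arrays of these groups fitted alone it was not called.

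Akr1b7, an aldo-keto reductase of lipid aldehydes, was lower on average at 5 mg/kg (8.77 ± 0.63) than at 0 mg/kg (9.45 ± 0.83), a difference of −0.68 that did not pass (adjusted p = 0.86). At 45 mg/kg it averaged 10.69 ± 0.20, a difference of 1.24 from 0 mg/kg that did not pass either (adjusted p = 0.18 by limma). The upper step was 1.92 (SE 0.47, adjusted p = 0.026). Its call needed 5 mg/kg replicate 3, whose 7.73 was the lowest (1.66, adjusted p = 0.13 when left out), as well as replicate 4 of that dose (0.069) and replicates 1, 2 and 5 of the higher dose (up to 0.083).

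**Figure D3:**
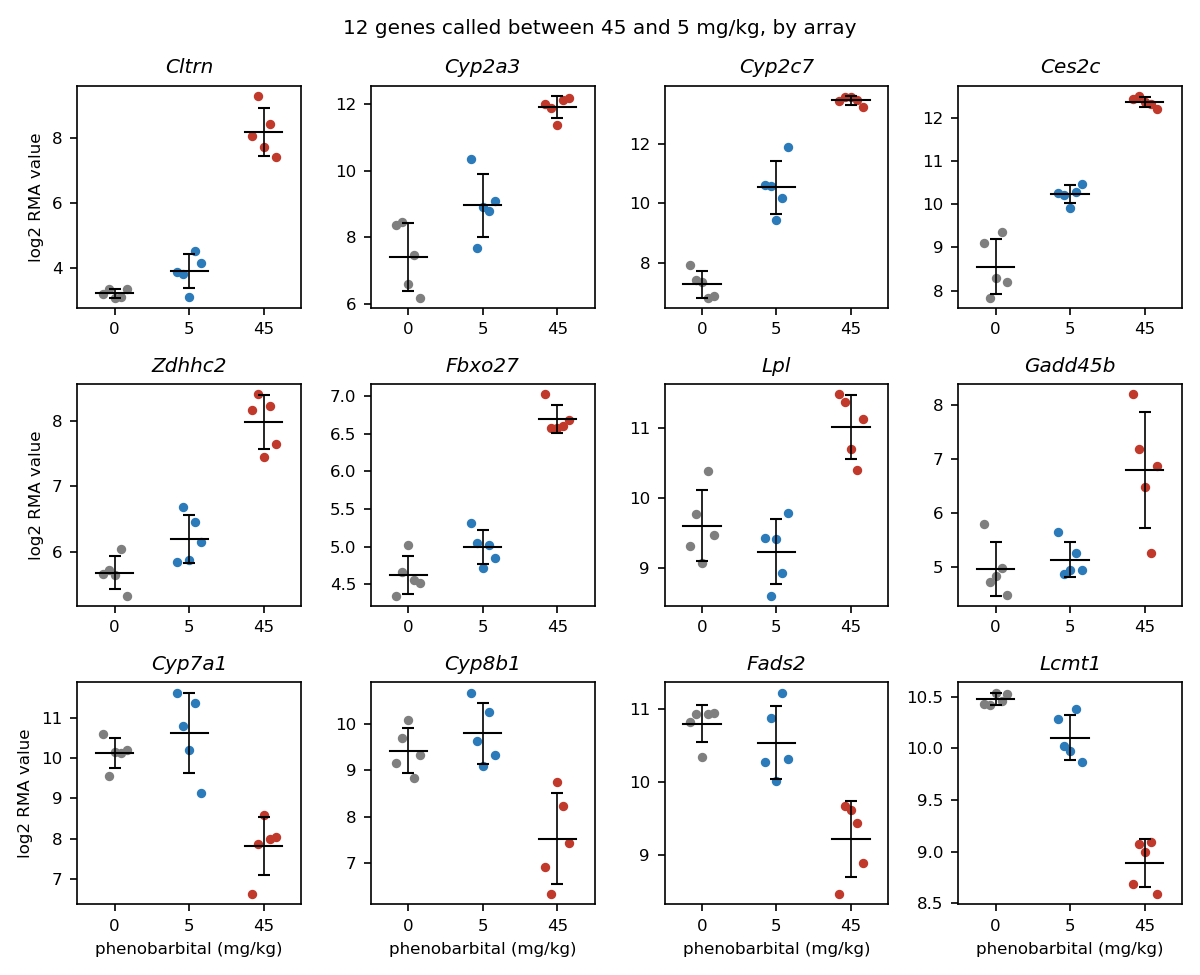
Log2 RMA values of 12 called genes on each of the 15 phenobarbital arrays by dose, with the mean and SD of each group (n = 5). Cltrn, Ces2c and Fbxo27 at 45 mg/kg lie apart from both lower doses, and Cyp7a1, Cyp8b1, Fads2 and Lcmt1 lie below them.

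The deepest falls were in bile acid synthesis. Cyp7a1, the rate-limiting enzyme that turns cholesterol into bile acids, read 11.63, 10.81, 10.20, 11.37 and 9.12 at 5 mg/kg (10.63 ± 1.01) and 6.62, 7.87, 8.59, 7.99 and 8.03 at 45 mg/kg (7.82 ± 0.73). Every 45 mg/kg array was below every 5 mg/kg array and below the 0 mg/kg range of 9.56 to 10.60. The step was −2.81 (SE 0.42, adjusted p = 1.4e-05), after a lower difference of 0.50 (SE 0.42, adjusted p = 0.9).

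Cyp8b1, the 12-alpha-hydroxylase that directs synthesis towards cholic acid, read 10.67, 9.62, 9.10, 10.26 and 9.33 at 5 mg/kg and 6.91, 6.34, 8.74, 8.23 and 7.44 at 45 mg/kg. Its step was −2.26 (SE 0.39, adjusted p = 0.00022), again without a called difference at 5 mg/kg (0.38, adjusted p = 0.93). Of the 25 measured members of the bile acid list these were the only calls in the upper step (0.274% of all genes fell). The list median was −0.07, and steps ran from −2.81 to 0.71. Groups did not overlap in 3 members upward and 5 downward (all genes, 1.9% and 1.52%). An unadjusted p below 0.05 by limma was found in 3 higher and 4 lower members (all genes, 4.11% and 3.22%). These counts include the calls. Both calls were kept without any single array; without 5 mg/kg replicate 5 another member rose.

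In fatty acid synthesis and desaturation, 1 of 27 measured members passed, as a fall (0.274% of all genes). Fads2, the delta-6 desaturase that starts the synthesis of long polyunsaturated fatty acids, read 10.28, 10.88, 10.01, 11.23 and 10.31 at 5 mg/kg and 8.46, 9.67, 9.62, 9.44 and 8.89 at 45 mg/kg. It fell by 1.33 (SE 0.20, adjusted p = 1.4e-05), and no array of one dose reached the other. Scd, the stearoyl-CoA desaturase, had a larger but more variable difference of −1.71 (SE 0.70, adjusted p = 0.47), with non-overlapping groups of 5.89 to 7.71 and 4.67 to 5.43. Thrsp, a lipogenic regulator, differed by −1.53 (SE 0.43, adjusted p = 0.083) and the regulator Srebf1 by −0.67 (SE 0.22, adjusted p = 0.21). The list's calls were 1 risen and 1 fallen without 5 mg/kg replicate 5 and 2 fallen without 45 mg/kg replicate 4.

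Lcmt1, the methyltransferase of protein phosphatase 2A, fell by 1.21 (SE 0.18, adjusted p = 1.1e-05). Its arrays read 10.28, 10.02, 9.97, 10.38 and 9.87 at 5 mg/kg and 8.59 to 9.09 at 45 mg/kg. The 0 mg/kg arrays lay between 10.42 and 10.54, so the 3 groups did not overlap. The lower difference of −0.37 (SE 0.18, adjusted p = 0.74 by limma) was not called. Pcp4l1, a small protein of the Purkinje cell protein 4 family, fell from 8.22 ± 0.45 to 6.49 ± 0.65 (−1.73, adjusted p = 0.0056), and leaving out 45 mg/kg replicate 3, its lowest array, gave −1.45 with an adjusted p of 0.045.

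Rprm, which encodes reprimo, a p53-induced cell cycle inhibitor, averaged 7.81 ± 0.24 at 0 mg/kg, 6.93 ± 0.32 at 5 mg/kg and 5.74 ± 0.70 at 45 mg/kg. The upper step of −1.19 (SE 0.26) was called (adjusted p = 0.009), but not without 45 mg/kg replicate 1 (−0.99, adjusted p = 0.093) or replicate 5 (−1.08, adjusted p = 0.062). The lower step of −0.87 was not called (adjusted p = 0.31), although its groups did not overlap.

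The calls of Car3 and Csad as fallen each depended on single arrays. Car3, a carbonic anhydrase abundant in liver, fell by 1.02 (adjusted p = 0.023), with 45 mg/kg arrays from 11.02 to 13.31 against 12.87 to 13.75 at 5 mg/kg. Without 45 mg/kg replicate 5, its lowest array, the step was −0.69 (adjusted p = 0.35), and the call was also lost without 45 mg/kg replicate 1 or 5 mg/kg replicates 1, 3 or 5. Csad, which makes the taurine precursor hypotaurine, fell from 11.31 ± 0.25 to 10.36 ± 0.33 (−0.95, adjusted p = 0.021), a call lost without 5 mg/kg replicates 1 or 4 or 45 mg/kg replicates 1 or 2 (adjusted p up to 0.12).

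Genes that had reached their level at 5 mg/kg were few by the interval rule. Sc5d, the lathosterol desaturase of cholesterol synthesis, read 10.39 to 10.96 at 0 mg/kg, 11.50, 11.50, 11.11, 11.61 and 11.44 at 5 mg/kg, and 11.37, 11.60, 11.64, 11.50 and 11.14 at 45 mg/kg. It rose by 0.66 (SE 0.13, adjusted p = 0.0097) and then differed by 0.02 (95% interval −0.25 to 0.28). The lower call was lost without 0 mg/kg replicate 1 (0.56, adjusted p = 0.13), 5 mg/kg replicate 2 (adjusted p = 0.058) or replicate 4 (0.068).

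The other 2 plateau genes fell to values near the bottom of the scale, where a further fall could not be seen. Inhbb, the beta-B subunit of activin and inhibin, went from 4.83 ± 0.63 to 3.35 ± 0.24 and stayed at 3.37 ± 0.16, and its lower call (adjusted p = 0.037) held in 1 of the 10 fits that left out an array, that lacking 0 mg/kg replicate 3, and the adjusted p reached 0.23 in the others. C2h3orf80 went from 4.17 ± 0.96 to 2.91 ± 0.20 (−1.27, adjusted p = 0.0014) and read 3.09 ± 0.25 at 45 mg/kg.

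Another 9 genes were called at 5 mg/kg with an upper step that neither passed nor met the interval rule for a plateau. Ugt2b1, a glucuronosyltransferase of steroids and xenobiotics, read 12.17 to 12.57 at 0 mg/kg, 13.42, 13.20, 13.38, 13.36 and 13.37 at 5 mg/kg, and 13.75, 13.69, 13.71, 13.82 and 13.86 at 45 mg/kg. The lower step was 0.96 (SE 0.12, adjusted p = 4.1e-07) and the upper 0.42 (SE 0.12, adjusted p = 0.081), although every array at 45 mg/kg was the higher. Cyp2c6v1, a highly expressed 2C P450, rose by 0.64 (adjusted p = 4.1e-06) and then differed by 0.24 (SE 0.09, adjusted p = 0.34), with 45 mg/kg arrays between 14.09 and 14.18 and all 5 mg/kg arrays below them. These values are high on the intensity scale, and whether the probes were near their ceiling was not tested.

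Ugt2a1 rose by 0.71 and then differed by 0.56 (adjusted p = 0.087 in the upper step), again with separate groups. Pgrmc1, a heme-binding partner of P450s, rose by 0.36 and then differed by 0.12 (95% interval −0.03 to 0.26), and the glutathione S-transferase Gstt3 rose by 0.64 and then differed by 0.16 (−0.12 to 0.45). For 4 of the 9, among them Idi1 and Msmo1 of cholesterol synthesis, the upper estimate ran back towards 0 mg/kg without passing. The phosphate and urate carrier gene Slc17a3 differed by 0.64 and then −0.39 (adjusted p = 0.34), and Creb3l3, a liver transcription factor of lipid metabolism, by −0.75 and then 0.44 (adjusted p = 0.37). The lower calls of Ugt2a1, Pgrmc1, Gstt3, Slc17a3 and Creb3l3 were each lost in 3 to 9 of the 10 fits that left out 1 array, with 5 mg/kg replicates 2 and 4 among those arrays for all 5.

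The remaining 2 of the 9 belong, with Sc5d, to cholesterol synthesis, in which squalene is built from isoprene units and trimmed through a chain of sterol enzymes under the transcription factor SREBP2. Idi1, the isopentenyl diphosphate isomerase, read 8.92, 9.40, 9.34, 9.68 and 9.19 at 0 mg/kg, 10.46, 10.95, 10.03, 11.46 and 10.83 at 5 mg/kg, and 9.62, 10.39, 10.21, 10.48 and 9.20 at 45 mg/kg. It rose by 1.44 (SE 0.32, adjusted p = 0.037) and then differed by −0.77 (SE 0.32, adjusted p = 0.48). Msmo1, a sterol methyl oxidase, rose from 9.62 ± 0.32 to 11.09 ± 0.51 (1.47, adjusted p = 0.017) and averaged 10.72 ± 0.61 at 45 mg/kg (−0.37, adjusted p = 0.94). The lower call of Idi1 was lost in 7 and that of Msmo1 in 4 of the 10 fits without 1 array, with adjusted p up to 0.23 and 0.14, both without 5 mg/kg replicate 4.

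The starts of these 3 genes are shown because their members rose together at 5 mg/kg. Each line gives the 250 bases before the first start listed for the gene by RefSeq on rat build GRCr8, 5′ to 3′ on the gene's strand, with capitals at each CCAAT box (CCAAT, or ATTGG for the other strand), the motif bound by NF-Y, which is known to act beside SREBP at sterol genes. The windows are chr8:51538278-51538527 on the minus strand for Sc5d, chr17:66547525-66547774 on the minus strand for Idi1 and chr16:29746863-29747112 on the plus strand for Msmo1.
Sc5d: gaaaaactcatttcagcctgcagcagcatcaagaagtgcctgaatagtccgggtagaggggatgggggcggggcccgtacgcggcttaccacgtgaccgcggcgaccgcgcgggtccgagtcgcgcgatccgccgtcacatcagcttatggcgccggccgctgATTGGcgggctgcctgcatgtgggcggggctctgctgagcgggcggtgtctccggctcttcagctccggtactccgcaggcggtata
Idi1: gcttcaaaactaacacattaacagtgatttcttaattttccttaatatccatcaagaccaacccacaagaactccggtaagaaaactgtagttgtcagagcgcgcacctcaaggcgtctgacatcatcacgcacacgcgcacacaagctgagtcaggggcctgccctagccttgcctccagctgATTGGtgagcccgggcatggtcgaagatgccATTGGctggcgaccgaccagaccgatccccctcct
Msmo1: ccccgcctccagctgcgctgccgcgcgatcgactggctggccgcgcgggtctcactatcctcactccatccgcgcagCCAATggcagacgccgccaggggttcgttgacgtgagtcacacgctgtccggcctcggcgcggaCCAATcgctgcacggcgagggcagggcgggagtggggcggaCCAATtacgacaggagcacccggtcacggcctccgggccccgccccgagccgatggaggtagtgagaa

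Sc5d holds 1 CCAAT box, Idi1 holds 2 and Msmo1 holds 3. Over the 17 measured cholesterol genes with a RefSeq window, 13 (76.5%) hold at least 1, against 34.3% of all 27457 windows. The sterol element TCACNCCAC, searched on both strands, was in 0 of the 17 and in 0.98% of all windows, and the E-box CACGTG in 3 of the 17 and 5.79%. Among windows of genes called in the upper step, CCAAT was in 21 of 51 risen (41.2%) and 19 of 32 fallen genes (59.4%), and among CAR and PXR targets in 17 of 30 (56.7%). A direct repeat of AGNTCA with 4 bases between the copies, an arrangement that CAR and its partner RXR can bind, was in 0 of the 30 windows of CAR and PXR targets and in 0.055% of all windows. The Sc5d window also holds 1 E-box, which does not overlap its CCAAT box, and overlaps between motifs in other windows were not removed. Base composition, which differs between windows, was not taken into account.

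Over the 21 measured genes of cholesterol synthesis and uptake, 20 estimates were above 0 between 5 and 0 mg/kg and 19 were below 0 between 45 and 5 mg/kg, with medians of 0.76 and −0.52. Few passed: 3 rose in the lower step (0.0844% of all genes), and in the upper step Scap alone fell (0.274%). Members read on the same arrays are not independent, and both steps use the same 5 mg/kg arrays. Averaged over the list, the 0 mg/kg arrays read 8.85, 8.96, 9.09, 9.07 and 8.90, the 5 mg/kg arrays 9.57, 10.00, 9.25, 10.25 and 9.74, and the 45 mg/kg arrays 8.93, 9.63, 9.33, 9.68 and 8.84. The 5 mg/kg arrays were all above the 0 mg/kg arrays, and the 45 mg/kg arrays spanned from the lower group into the higher. The count of 3 risen members was 0 without 0 mg/kg replicate 1 or 5 mg/kg replicates 2 or 4, 1 without 0 mg/kg replicate 3, 2 without 0 mg/kg replicates 2 or 5 or 5 mg/kg replicate 5, and 9 when the 5 mg/kg array with the lowest mean, replicate 3, was left out.

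Scap, the escort protein that carries SREBP to its activation, fell from 8.38 ± 0.13 to 7.82 ± 0.13 (−0.56, SE 0.14, adjusted p = 0.023), with 8.27 to 8.59 at 5 mg/kg and 7.63 to 7.98 at 45 mg/kg. This call was lost without 5 mg/kg replicates 1 or 4 or 45 mg/kg replicates 1 or 5 (adjusted p up to 0.12). Insig1, which holds Scap back when sterols are plentiful, differed by 0.82 and then −0.88 (adjusted p = 0.72 and 0.5). Sqle, the squalene epoxidase, differed by 1.30 and then −0.44 (adjusted p = 0.098 and 0.9).

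The class rule found 5 genes whose difference changed sign between the steps, and none of them was called at 5 mg/kg or at 45 mg/kg against 0 mg/kg. Ppp2r2b, a regulatory subunit of protein phosphatase 2A, read 6.08, 6.24, 5.42, 6.81 and 6.49 at 5 mg/kg and 4.74, 5.35, 5.07, 4.68 and 4.90 at 45 mg/kg, a step of −1.26 (SE 0.29, adjusted p = 0.014) after 0.64 (unadjusted p = 0.032). At 0 mg/kg, replicate 4 read 7.33 and the other 4 arrays 4.91 to 5.33. The call was lost without 5 mg/kg replicate 4 (adjusted p = 0.091) or 45 mg/kg replicate 1 (0.053).

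Bmyc, a Myc relative, differed by 0.29 (unadjusted p = 0.011) and then fell by 0.52 (SE 0.11, adjusted p = 0.0056), a call lost without 45 mg/kg replicate 3 (−0.40, adjusted p = 0.064). Dpt, the matrix protein dermatopontin, differed by 0.58 and then −0.88 (adjusted p = 0.028), and Slc16a13, a monocarboxylate carrier, by 0.32 and then −0.55 (adjusted p = 0.02). Cenpp, a centromere protein, was the only one to go down first, by −0.46 and then 0.67 (adjusted p = 0.014). Calls of the last 3 were lost in 6, 4 and 3 of the 10 fits without 1 array; the highest adjusted p were 0.22 without 45 mg/kg replicate 5 for Dpt, 0.13 without 45 mg/kg replicate 2 for Slc16a13 and 0.084 without 45 mg/kg replicate 5 for Cenpp. The count of reversed genes was 2 without 5 mg/kg replicate 4, 3 without 5 mg/kg replicate 2 or 45 mg/kg replicates 1, 2 or 5, 9 without 5 mg/kg replicate 5 and 10 without replicate 3. It was 23 with the 15 phenobarbital arrays alone and 25 with only the groups compared.

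No member of the cell cycle list passed in either step, while nearly all estimates of the list had the same sign within a step. The centromere protein gene Cenpp, called as risen in the upper step (0.67, adjusted p = 0.014 by limma), is not on the list. Of 38 measured, 0 were called by limma in the upper step, while 37 estimates were above 0 and 27 were higher at an unadjusted p below 0.05, against 4.11% of all genes. The median was 0.49 in the upper step, against −0.007 over all genes, and −0.45 in the lower, where 0 of 38 estimates were above 0. Cdk1, the mitotic kinase, read 7.98, 7.13, 8.22, 7.60 and 7.88 at 5 mg/kg and 8.50, 8.67, 8.40, 8.54 and 8.52 at 45 mg/kg (0.76, SE 0.23, adjusted p = 0.13), with separate groups, and 8.33 ± 0.28 at 0 mg/kg. The list averaged 6.96, 6.46, 7.26, 6.71 and 6.86 on the 5 mg/kg arrays, 7.15 to 7.49 at 45 mg/kg and 6.96 to 7.63 at 0 mg/kg. Without 5 mg/kg replicate 3, 1 member was called as risen. Between 45 and 0 mg/kg the median difference was 0.05. In the list mean, the 5 mg/kg arrays overlapped those of both other doses. Members read on the same arrays are not independent, and both steps use the same 5 mg/kg arrays. The counts of members therefore do not measure how sure the dip at 5 mg/kg is.

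**Figure D4:**
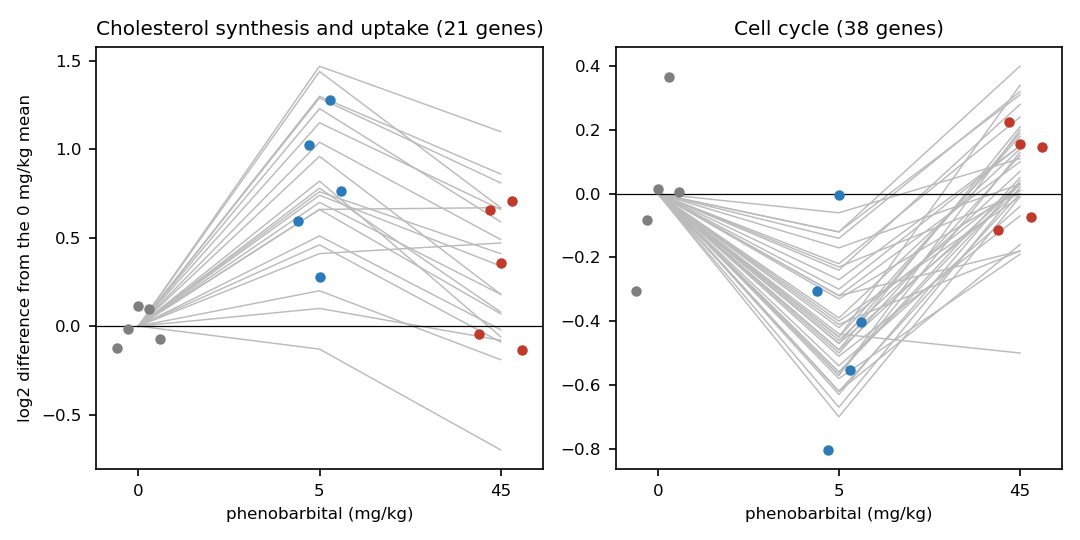
Log2 difference from the 0 mg/kg mean by dose for the 21 cholesterol genes and the 38 cell cycle genes, with a grey line through the group means of each gene and a point for the list mean on each array. Most lines of the cholesterol list peak at 5 mg/kg and those of the cell cycle list dip there, and among the 5 mg/kg arrays replicate 3 lies nearest to 0 in both panels.

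Markers of the liver's cell types gave no call by limma in the upper step, with an unadjusted p below 0.05 in 2 higher and 2 lower hepatocyte markers, in 1 cholangiocyte, 1 lymphocyte, 1 erythroid and 1 pancreas or gut marker, and in 0 of the other marker lists (all genes, 4.11% higher and 3.22% lower). The 13 measured hepatocyte markers averaged 13.05 to 13.30 at 0 mg/kg, 13.07 to 13.27 at 5 mg/kg and 13.08 to 13.19 at 45 mg/kg. Means of the Kupffer cell markers ran from 8.50 to 8.75 at 5 mg/kg and from 8.36 to 8.88 at 45 mg/kg, those of stellate cells and fibroblasts from 7.07 to 7.76 and from 7.11 to 7.31, and those of endothelial cells from 8.21 to 8.27 and from 8.02 to 8.21. Means of the lymphocyte, cholangiocyte, neutrophil and pancreas or gut markers lay below 5 on every array of both groups. Upper estimates were above 0 in 4 of 13 hepatocyte, 2 of 11 Kupffer cell, 4 of 13 stellate cell and fibroblast and 0 of 9 endothelial markers. They were above 0 in 2 of 7 cholangiocyte, 7 of 16 lymphocyte, 6 of 7 neutrophil, 1 of 10 erythroid and 5 of 13 pancreas or gut markers. In tissue RNA, fewer cells of a type and less RNA per cell cannot be told apart.

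The remaining lists held few or no calls in the upper step. Among p53 targets, 1 of 17 measured genes, Gadd45b, rose, against 0.408% of all genes. Rprm, described above as p53-induced and called as fallen (−1.19, adjusted p = 0.009 by limma), is not on that list. None of 27 PPAR-alpha and fatty acid oxidation genes, 18 genes of glucose and glycogen metabolism, 25 of the unfolded protein and stress response, 26 acute phase genes, 22 interferon-stimulated genes or 16 of thyroid hormone handling passed in either direction by limma, and their medians lay between −0.18 and 0.09. Unadjusted p below 0.05 were found, higher and lower, in 3 and 2, 2 and 5, 4 and 1, 0 and 3, 1 and 0, and 1 and 1 of their members in that order. Over all genes the shares were 4.11% and 3.22%. Estimates were above 0 in 15 of 27, 5 of 18, 22 of 25, 7 of 26, 13 of 22 and 8 of 16 members, in the same order. The 14 fetal and neonatal liver genes and the 23 sex-biased genes each held 1 risen member, Cyp2c7, which is on both lists.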

How the data were processed

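Liver RNA was labelled with biotin and hybridised to oligonucleotide arrays, per the labels' protocols. The authors deposited log2 values after RMA, per the submitters' processing notes; genome build and software version are not given in the sources used here. Medians of the phenobarbital arrays lay between 4.974 and 5.042. The sorted values of the phenobarbital arrays differed less (mean SD 0.025) than those of all arrays (0.069), so levels were not compared between agents. Of 31099 probe sets, 57 controls were left out, 20826 had 1 gene in the platform annotation of 2016, 436 had several and 9780 none; 20758 symbols were updated by Entrez ID. Each of 14217 genes was read from 1 probe set, the brightest on average across the series among those assigned to it alone. Of 29 other probe sets of 22 called genes, 24 had the same sign and 0 were called oppositely. Only probe sets of Abcb1a, App, Mmgt1 and Pcp4l1 among the 29 were themselves called.

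limma 3.58.1 in R 4.3.3 fitted 15 group means to 72 samples (57 residual degrees of freedom). Near-identical arrays (root mean square difference under 0.3 over 300 genes) made up 4 of 656 pairs, 0 of them among phenobarbital arrays. Pairs within a group, at BDE-47 0 mg/kg and at DE-71 15 mg/kg, were averaged. Pairs across 15 and 50 mg/kg, of BDE-47 and of DE-71, stayed in the fit as separate samples. Tests were two-sided, Benjamini-Hochberg adjusted over all genes, and were tested on simulated data. Nothing says whether the arrays of a group came from separate litters. The p-values therefore measure the spread between arrays of a group, pooled over all 15 groups of the series. Genes named are the 12 largest rises and falls with all 5 arrays on one side. Also named are all genes called at 5 mg/kg, up to 4 per list, and the reversed and plateau genes. Index genes of drug, bile acid, sterol and lipid metabolism were named too. Abcb1a, Cyp3a18 and Fads3 were added after their values were seen. The comparison, members and lists were chosen with earlier results of these data known. Promoter windows (250 bases) were those of the first start RefSeq lists per gene. Alternatives were other sample sets, probe set rules, a filter at 6, rescaling, a trended variance, a replicate block and leaving out each array. The number of arrays limits the precision. Per-sample columns not used numbered 0.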

Additional observations from a re-analysis of the deposited data

Results flagged for a closer look

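In 30 of 324 groups of 5 arrays (9.26%) of the 108 genes chosen by the rule for named genes, the highest or lowest array lay apart from the other 4 by Dixon's criterion; chance flags about 1 in 20 such groups. In genes called in the upper step, Bmyc was low at 4.59 on 45 mg/kg replicate 3 (others 5.15 to 5.26) and at 4.98 on 0 mg/kg replicate 1. Dpt was low at 9.56 on 45 mg/kg replicate 5 (others 10.28 to 10.38), Pcp4l1 at 5.34 on 45 mg/kg replicate 3 (others 6.56 to 6.87) and Gsta4 at 11.62 on the same array and at 11.01 on 0 mg/kg replicate 2. Fbxo27 was high at 7.02 on 45 mg/kg replicate 1, and Tsc22d1 at 11.32 on 5 mg/kg replicate 1 (others 10.35 to 10.49). At 0 mg/kg, Ppp2r2b was high at 7.33 on replicate 4, Fads2 low at 10.35 on replicate 3, and Rprm and Hes6 low at 7.39 and 8.96 on replicate 1.

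Among genes not called in the upper step, Abcg5, a sterol exporter, was low at 6.13 on 45 mg/kg replicate 4 (others 7.54 to 8.04), where the flavin monooxygenase Fmo1 was high at 10.97. Other arrays at 45 mg/kg that stood apart were 11.82 for Hnf4a on replicate 3, 8.95 for Pdk4 and 3.49 for Csf3r on replicate 1, and 13.40 for Fabp1 on replicate 5. At 5 mg/kg they were 8.87 for Cxcl13 and 12.35 for Slco1a4 on replicate 1, 13.20 for Ugt2b1 on replicate 2, 13.79 for Itih4 on replicate 3, 13.72 for Cyp2c6v1 on replicate 4 and 4.23 for Muc1 on replicate 5. At 0 mg/kg they were 3.20 for Gata1 on replicate 1, 12.63 for Cyp1a2 on replicate 3, and 3.99 for Cd8a, 11.36 for Hnf4a, 5.23 for Per3 and 6.10 for Vwf on replicate 4.

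Probe sets outside the gene table also changed. In a fit over all probe sets, 3 of 436 assigned to several genes (0.688%) and 15 of 9780 with no gene (0.153%) passed in the upper step, against 93 of 20826 with 1 gene (0.447%). Probe set 1371076_at, assigned to several genes, averaged 12.12 at 0, 13.25 at 5 and 14.09 at 45 mg/kg, steps of 1.13 (adjusted p = 0.0038 by limma) and 0.83 (0.041). The largest step without a gene was that of 1396155_at, at 2.99, 3.62 and 6.93 (3.31, adjusted p = 4.9e-10).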

How the results depend on the processing

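None of the 34 called genes named by the rule changed direction in the upper step. Of these 34 calls, 24 were kept in every alternative, other than leaving out arrays, that held the gene; 9 of the 34, 6 of them among the 24, were not in the fit of genes with a mean of at least 6. The rest lost the call as follows: Car3, Dpt, Ppp2r2b, Slc16a13, Tsc22d1 and Ugt2b35 with the 15 phenobarbital arrays alone; Car3, Gadd45b, Gsta4, Rprm, Slc16a13, Tsc22d1 and Ugt2b35 with only the groups compared; Car3, Dpt, Slc16a13 and Tsc22d1 with the mean of all probe sets; Sult1b1 and Tsc22d1 with adjustment over all probe sets; and Sult1b1 with a trended, robust variance. The cause was not tested. Fitting only the 15 phenobarbital arrays gave 177 calls between 45 and 5 mg/kg (117 risen, 60 fallen; 83 of the 97 among them), 739 between 45 and 0 mg/kg, and classes of 6 continued, 36 graded, 112 only above 5 mg/kg, 23 reversed, 6 plateau and 595 unresolved. Only the groups compared gave 209 (133 and 76), with 5, 40, 139, 25 and 8 in the first 5 classes. The mean of all probe sets gave 3 reversed genes, and a minimum mean of 6 gave 1 reversed and 1 plateau.

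Leaving out 1 array gave 54 to 106 calls in the upper step (34 to 66 risen, 20 to 44 fallen), 5 to 24 between 5 and 0 mg/kg and 233 to 356 between 45 and 0 mg/kg. Classes ranged over 2 to 3 continued, 12 to 21 graded, 37 to 81 only above 5 mg/kg, 2 to 10 reversed, 0 to 5 plateau and 189 to 325 unresolved. The replicate numbers did not pair the arrays (same-numbered arrays at 5 and 45 mg/kg correlated at −0.06 to 0.14, best with their own number in 0 of 5), and with the replicate number as a block 95 genes were called, 93 of them among the 97. Risen genes were 59.8% of calls as deposited, 58.3% after quantile normalization and 61.7% with centred medians.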

Other observations

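The genes in this paragraph were chosen after their values were seen, from the 97 called in the upper step, and are described singly, with no list behind them. Genes that fell were Hal, which starts histidine breakdown, by 0.84 (adjusted p = 0.044 by limma), Gnmt, the glycine methyltransferase, by 0.74 (0.02), Chdh, the choline dehydrogenase, by 0.57 (0.0035), Asl of the urea cycle by 0.46 (0.03), Cdo1, which oxidises cysteine, by 0.45 (0.029), Hgd of tyrosine breakdown by 0.43 (0.0093) and Pemt, which makes phosphatidylcholine, by 0.42 (0.01). Among genes that rose were Cndp1 and Cndp2, the peptidases that split carnosine and other dipeptides, by 1.30 (0.0012) and 0.87 (6.6e-07), App, the amyloid precursor protein, by 1.04 (4e-08), Cidea, a lipid droplet protein, by 1.15 (0.042) and Parp1, a DNA repair enzyme, by 0.60 (0.0047). Other rises were those of the mannosidase Manba by 0.75 (0.014), the cathepsin Ctso by 0.63 (0.009), the membrane protein gene Scarb2 by 0.54 (0.012), the carboxypeptidase Scpep1 by 0.45 (0.046) and Aga, which cleaves sugars from asparagine, by 0.41 (0.028). Of the 10 fits that left out 1 array, Hal, Cidea and Scpep1 lost the call in 8, Asl in 7, Cdo1 and Aga in 6, Gnmt in 4, and Hgd, Pemt, Manba and Scarb2 in 2. The calls of Chdh, Cndp1, Cndp2, App, Parp1 and Ctso were lost in none.

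On the 5 mg/kg arrays, list means differed between replicates, which was noticed in the data and has no test. Replicates 2 and 4 had the highest means for cholesterol genes (10.00 and 10.25), NRF2 targets (9.21 and 9.37) and glutathione S-transferases (10.22 and 10.21), and the lowest for cell cycle genes (6.46 and 6.71). Replicate 3 had the lowest mean for cholesterol genes (9.25) and the highest for cell cycle genes (7.26). CAR and PXR targets on these arrays stayed between 9.18 and 9.25.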
